A study of Zea mays with 2 samples.

Results

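Calcium-dependent protein kinases (CDPKs), calmodulins, mitogen-activated protein kinases (MAP kinases, or MPKs) and the MAP kinase kinase MEK1 were compared between stems of the dwarf mutant D11 and of wild type (WT) maize. The genes were chosen by name alone: a gene symbol or synonym had to be cdpk, cpk, cal, cam, ccamk, mpk, mapk or mek followed by digits. This found 10 genes, read by 12 probe sets, among 1108 genes and 1452 probe sets with a name and 17621 maize probe sets in all. A probe set is a group of short probes for 1 transcript, and its signal is in arbitrary units.

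D11 is a dominant dwarf found in the progeny of Mo17 crossed with HN06, which the study kept by backcrossing to Mo17, B73 and W22. The D11 sample was labelled as stem of the mutant and the control as stem of wild type plants of the inbred line Mo17. Both were taken when the tassel emerged, from untreated plants. There was 1 Affymetrix Maize Genome Array per genotype. The nuclear background of the D11 plants on the array and the number of plants behind each RNA sample are not given in the sources used here, so differences of background cannot be told apart from those of the dwarf gene. With 1 array per genotype there was no replicate check, no error and no test, and every difference below describes these 2 arrays.

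CDPKs carry a protein kinase and a calmodulin-like calcium-binding part in the same protein, so that calcium acts on the kinase directly. Calmodulin has no enzyme activity of its own and acts on other proteins once it has bound calcium. In the MAP kinase cascade, a MAP kinase kinase activates a MAP kinase by phosphorylation, and the cascade is known for its part in stress and hormone responses of plants. All of these proteins are controlled largely after translation, and the array measured transcripts only. In the barley aleurone, gibberellin is known to raise cytosolic calcium and calmodulin.

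The scale of a difference was read against 3 measures of the arrays themselves, none of which holds the variation between plants. The 63 probe sets for spike transcripts, added to the samples in known amounts, had a standard deviation of 0.20 in their log2 ratio of D11 over WT and differed by at most 1.38-fold. A set of 23 control probe sets (Tag and TrpnX) has no counterpart among maize transcripts. The brightest of them, at 24.7 in D11 and 27.6 in WT, was taken as the floor of its array. Among 128 named genes with at least 2 probe sets above the floor in both arrays, the probe sets of the same gene had a pooled standard deviation of 0.28 in the log2 ratio, and those of 44 genes (34.4%) went both ways. In D11 and in WT, 4 of 4 secondary wall genes had signals over the floor (2105 to 7010 in D11 and 2578 to 6585 in WT), among them the cellulose synthases cesa10, cesa11 and CesA12. Of the 3 pollen profilins prf1, prf2 and prf3, 0 were above the floor in D11 and 2 in WT, with summed signals of 39.5 in D11 and 113 in WT. For kernel genes, 2 of 12 probe sets were above it in D11 and 1 in WT (summed signals 1343 and 773), most of it from 1 probe set of the zein gene gz27 (1245 in D11 and 686 in WT). For green leaf genes, 11 of 14 probe sets were above it in D11 and 12 in WT (summed signals 28166 and 29557). Most of that sum came from chlorophyll-binding protein and Rubisco genes. Their probe sets above the floor went both ways by small amounts, with log2 ratios between -0.26 (lhcb6) and 0.13 (lhcb5). The C4 leaf genes PPDK and pep1 were lower in D11. PPDK (LOC542759) was lower in 4 of 4 probe sets above the floor, by up to 2.15-fold (115.7 in D11 and 249.1 in WT). The weak signal of pep1 (LOC542372) was at least 1.92-fold lower (13.4 in D11 and 47.5 in WT). The part of other tissues in the ratios below was not tested, and in bulk RNA fewer cells of a type and less RNA per cell cannot be told apart.

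The D11 stem and the WT stem had similar signals for most of these genes. Of the 12 probe sets, 10 were above the floor in both arrays, and they represented 9 of the 10 genes. These 10 had log2 ratios between -0.85 and 0.33 with a median of -0.02, against a median of 0.06 over the 12462 probe sets above the floor in both arrays. None of the 10 differed by 2-fold in either direction, where 6.2% of those 12462 reached 2-fold in the higher direction and 3.95% in the lower. At 1.5-fold, 0 were higher and 1 was lower, where 15.7% of all such probe sets were higher and 10.6% lower. The share of probe sets that differed by less than 1.5-fold was 9 of 10 here and 73.6% over those 12462, which include weaker signals. All 10 were over the array median in both arrays. Of the 8266 probe sets that were, 79.6% differed by less than 1.5-fold, 271 were at least 2-fold higher and 252 at least 2-fold lower. With 10 probe sets, nothing particular to these genes is read from these shares.

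**Figure D1:**
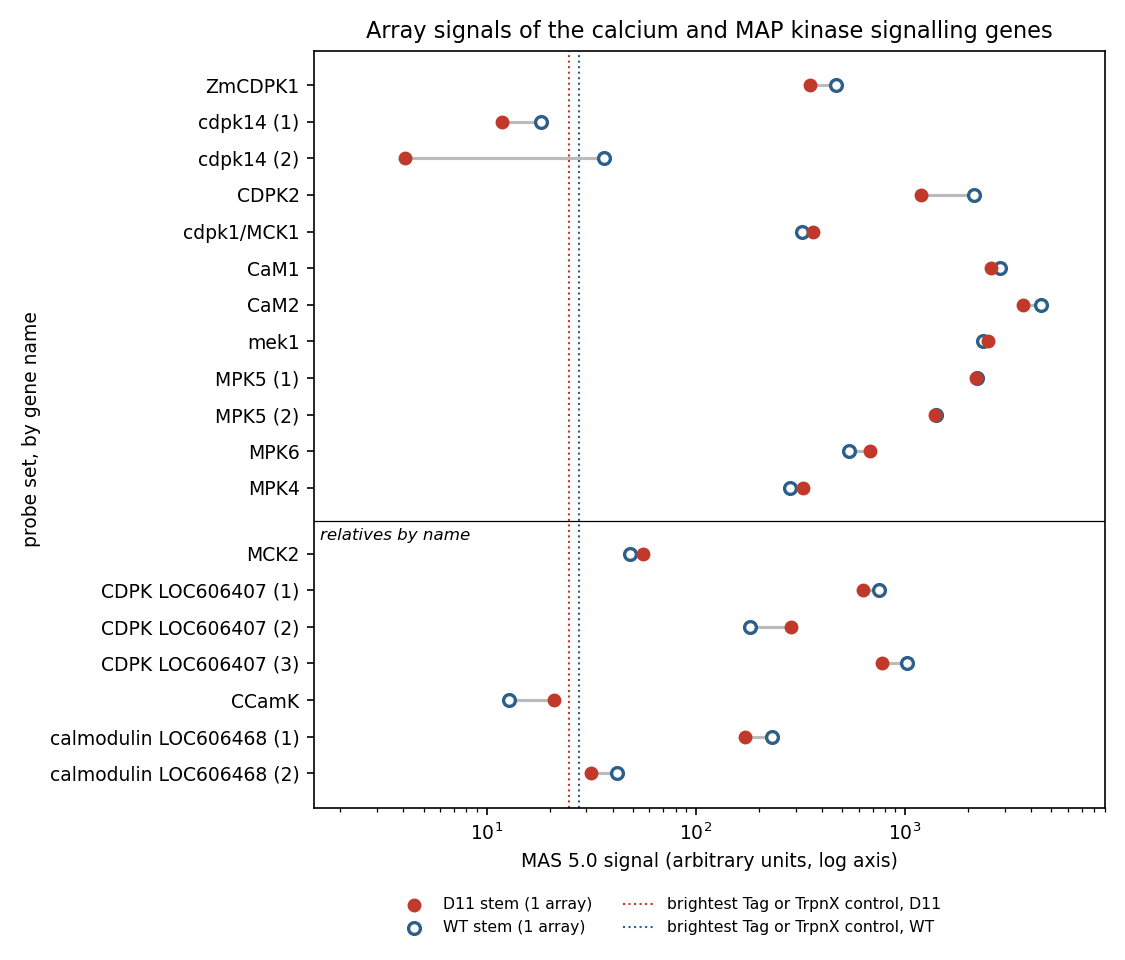
Signal of each probe set in the D11 stem (filled red points) and in the WT stem (open blue points), 1 array each. The log axis is in arbitrary units, and a dotted line marks the brightest Tag or TrpnX control of each array. Genes below the rule across the plot share a family name but have no digits directly after it. The points of a pair lie close together for MPK5 (2185 in D11 and 2210 in WT by the brighter probe set), farther apart for CDPK2 (1189 and 2140), and of the cdpk14 points only that of 36.5 in WT lies right of its dotted line.

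Of the CDPK genes above the floor, CDPK2 differed most. The probe set of CDPK2 (LOC542526, also CPK2) gave 1189 in D11 and 2140 in WT, a signal 1.80-fold lower in D11 (log2 ratio -0.85). This was the largest difference among the 10 probe sets above the floor. It was wider than the largest spike difference and than the pooled standard deviation within a gene (0.28). Neither measure holds the variation between plants, so a difference of genotype cannot be read from this, and only this probe set reads the gene. Over the array, 5.37% of the probe sets above the floor had a log2 ratio at least as low, and 4.22% of the 8266 over the array median in both stems. The log2 ratio of CDPK2 lay between -0.88 and -0.80 under the other scalings and treatments of weak signals.

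ZmCDPK1 (LOC542224) had 351.5 in D11 and 466.6 in WT, 1.33-fold lower in D11 (log2 ratio -0.41). This lay outside 1 standard deviation of the spike controls but within their largest difference. A different gene that also bears the name cdpk1 (LOC542762, also MCK1) had 363.7 in D11 and 323.1 in WT, 1.13-fold higher in D11 and within the spike spread. Both genes called CDPK1 were thus within the largest spike difference, and they went opposite ways by small amounts.

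cdpk14 (LOC542521, also ZMZK19) was close to or under the floor in both stems. Its probe set with an ID ending in S1_at had 4.09 in D11 and 36.5 in WT, and as the D11 signal was no brighter than the controls, the gene can only be called at least 1.48-fold lower in D11 by this probe set. Its other probe set had 11.9 in D11 and 18.1 in WT, neither above the floor, so no fold change is given. The weak signal matters for the counts. On the deposited signals as they stand, that first cdpk14 probe set was the 1 probe set of 12 that was at least 5-fold lower in D11, where 2.57% of the 17621 probe sets were, and 0 of 12 were at least 5-fold higher, where 2.26% were. At 2-fold it was again the 1 lower probe set, against 9.83% of all probe sets, and 0 were higher, against 9.93%. At 1.5-fold, 3 of 12 were lower (CDPK2 and both probe sets of cdpk14), against 17.8%, and 0 higher, against 19%. With signals raised to the floor, 0 of 12 reached 2-fold.

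**Figure D2:**
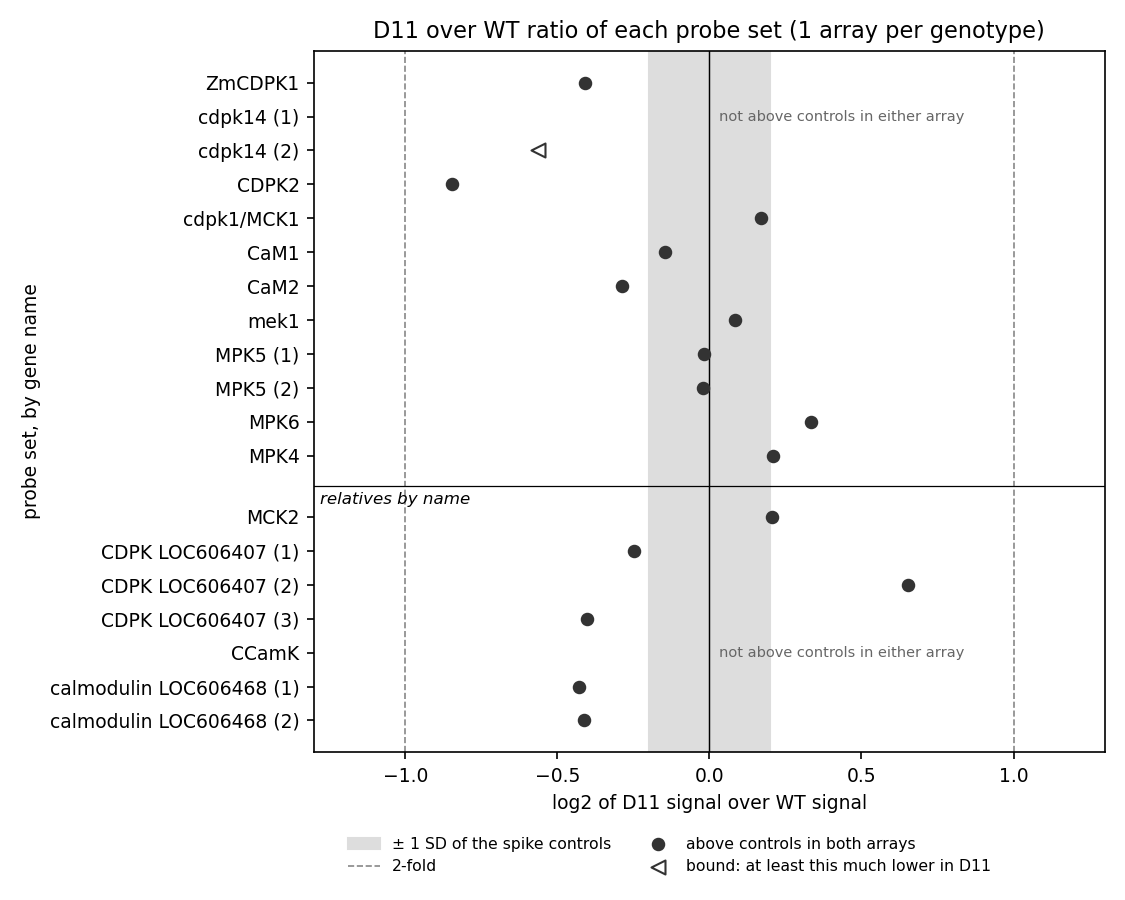
Log2 ratio of the D11 signal over the WT signal for each probe set, with the grey band at 1 standard deviation (0.20) of the spike controls and dashed lines at 2-fold; the open triangle marks a bound and probe sets under the controls in both arrays have no point. CDPK2 lies farthest to the left at -0.85, both MPK5 probe sets lie at -0.02, and none of the points crosses a 2-fold line.

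The calmodulin genes, which are abundant calcium sensors of plant cells, both had slightly lower signals in the D11 stem. CaM2 (LOC542533, also cal2) had 3651 in D11 and 4460 in WT, 1.22-fold lower in D11 (log2 ratio -0.29). CaM1 (LOC542420) had 2577 in D11 and 2854 in WT, 1.11-fold lower and within the spike spread (log2 ratio -0.15). Both differences were within the largest difference of a spike control. The probe set of CaM1 ends in _x_at, which marks probes shared with other sequences, and calmodulin genes are much alike, so its signal may hold that of other calmodulin transcripts.

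The MAP kinase module had similar signals in both stems. The MAP kinase kinase gene mek1 (LOC542356) had 2503 in D11 and 2364 in WT, 1.06-fold higher in D11 (log2 ratio 0.08). MPK5 (LOC541618), a MAP kinase of maize known for its part in the antioxidant defence set off by abscisic acid, had 2185 in D11 and 2210 in WT by one probe set. Its other probe set had 1383.5 in D11 and 1403.6 in WT. Both gave a log2 ratio of -0.02, 0.0043 apart, whereas the median gap within the 128 genes with several probe sets was 0.29. The sign of so small a ratio is not read, and it turned positive with lowess centring for both probe sets (0.06 and 0.01) and with quantile normalization for the first (0.07).

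MPK6 (LOC542143) had 676.4 in D11 and 536.7 in WT, 1.26-fold higher in D11 (log2 ratio 0.33), the highest ratio of the 10 probe sets. MPK4 had 324.0 in D11 and 280.4 in WT, 1.16-fold higher (log2 ratio 0.21). Both are MAP kinases, and both lay outside 1 standard deviation of the spike controls, MPK4 only just, and within their largest difference. In all, 5 of the 10 probe sets lay within 1 standard deviation of the spike controls, and 9 of 10 within their largest difference. Of the 12462 probe sets above the floor, which include weaker signals, 32.3% and 64.1% did. The 1 exception was CDPK2.

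**Figure D3:**
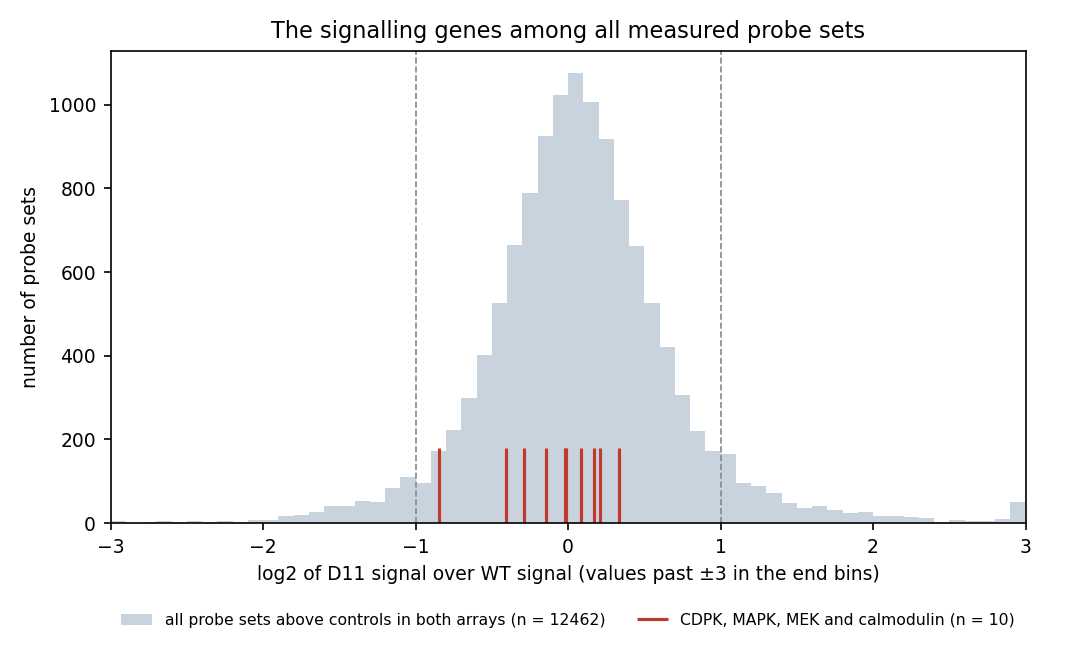
Number of probe sets by log2 ratio of D11 over WT for the 12462 probe sets above the floor in both arrays (grey bars), with the 10 probe sets of CDPK, MAP kinase, MEK and calmodulin genes as red lines and 2-fold as dashed lines. The red lines run from -0.85 to 0.33, all between the dashed lines.

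A further 4 genes bear the same family names with no digits directly after them and so fell outside the rule. They are LOC606407 (CDPK), LOC542225 (MCK2, a CDPK), LOC606468 (calmodulin) and LOC732824 (CCamK, a calcium- and calmodulin-dependent kinase). The CDPK gene LOC606407 was read by 3 probe sets that did not agree in direction. They had 286.0 in D11 and 182.0 in WT (1.57-fold higher in D11), 628.6 and 747.1 in D11 and WT (1.19-fold lower), and 774.6 and 1023.9 in D11 and WT (1.32-fold lower). The gap between the highest and lowest of these log2 ratios was 1.05, a gap that 3 of the 128 genes (2.34%) reached, this gene included, so no direction can be given for it.

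The calmodulin gene LOC606468 had 171.7 in D11 and 231.3 in WT by one probe set, and 31.6 in D11 and 42.0 in WT by the other. They were 1.35-fold and 1.33-fold lower in D11, 0.02 apart in log2 ratio. MCK2 had 56.2 in D11 and 48.7 in WT, 1.15-fold higher. CCamK had 20.9 in D11 and 12.9 in WT, under the floor in both, and no fold change is given.

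With these relatives added, 4 of 4 calmodulin probe sets above the floor (3 genes) were lower in D11, with a median log2 ratio of -0.35 and a range of -0.43 to -0.15. Over the array, 55.0% of the probe sets above the floor were higher in D11. The calmodulin probe sets are not independent, as 2 read the same gene and that of CaM1 can bind related transcripts. All 4 lay within the largest spike difference of 1.38-fold, and 1 was weak (31.6 in D11 and 42.0 in WT). The relatives were added after the values were seen, so nothing particular to calmodulins is read from this count. For CDPKs, 4 of 7 probe sets above the floor (5 genes) were lower and 3 higher, with a median of -0.25 and a range of -0.85 to 0.65. CDPK genes thus went both ways, and so did probe sets of the same CDPK gene.

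Probe sets without a gene name whose ID has the cluster number of a listed gene did not all follow the named ones. Of 2 that go with CaM1, one had 2863 in D11 and 3323 in WT (1.16-fold lower in D11), as CaM1 was, and the other 759.1 in D11 and 610.9 in WT (1.24-fold higher), against the direction of CaM1. The 1 that goes with MPK5 had 933.7 in D11 and 617.7 in WT, 1.51-fold higher in D11. It differed from both named MPK5 probe sets. Which transcripts these unnamed probe sets read is not known here.

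The study's supplementary annotation gives the name calmodulin to 1 more probe set, which the gene tables leave unnamed. It gave 69.1 in D11 and 386.0 in WT, 5.59-fold lower in D11, and both values were above the floor. That annotation covers only transcripts chosen by their fold change on these arrays, so the direction is no independent evidence about calmodulins. Of the 12 probe sets described above, 0 are in it, although 1 of cdpk14 passed 5-fold on the deposited signals.

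Other genes of these pathways were taken by symbol from 10 lists, of which 6 had named genes on the array, with 31 genes and 43 probe sets. No genes were named for calcineurin B-like or other calcium sensors, calmodulin-binding proteins, other kinases of the MAP kinase cascade or 14-3-3 proteins. The 37 probe sets above the floor in both arrays had a median log2 ratio of -0.06. Of these 37, 0 were at least 2-fold higher in D11 (6.2% over the array) and 1 was at least 2-fold lower (3.95%). On the deposited signals as they stand, 2 of the 43 were at least 5-fold higher (2.26% over the array) and 2 at least 5-fold lower (2.57%), and at 2-fold 2 were higher (9.93%) and 3 lower (9.83%). All of these were nitrate reductase, sucrose-phosphate synthase or sucrose synthase genes, from the list of CDPK substrates, and those past 5-fold had a signal under the floor in at least 1 array. With signals raised to the floor, 1 of the 43 was at least 2-fold higher and 1 at least 2-fold lower, and 0 were 5-fold apart.

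Genes that move or store calcium were mostly lower in D11 by small amounts. Of 12 probe sets (7 genes), 11 were lower, with a median log2 ratio of -0.21 and a range of -0.76 to 0.47, where 55.0% of all probe sets above the floor were higher. The -0.76 is of a calnexin probe set with 25.1 in D11, close to the floor of 24.7. The next lowest was the gene cap1, over the array median in both arrays, with 271.8 in D11 and 415.3 in WT (1.53-fold lower). Calnexin, calreticulin and the annexin LOC542446 each had several probe sets, which are not independent. None of the 12 differed by 2-fold, where 6.2% over the array were higher and 3.95% lower by that much, so that 0 of 12 is close to the array as a whole. Calreticulin (LOC542732, crt2), which holds calcium in the endoplasmic reticulum, had 5773 in D11 and 6469 in WT by its brighter probe set (1.12-fold lower). Calnexin (LOC542421, CNX), a chaperone of the same compartment, had 3688 in D11 and 4820 in WT (1.31-fold lower), and its 4 probe sets, which are not independent, were all lower. The annexin LOC542446 had 4210 in D11 and 4503 in WT (1.07-fold lower), and the annexin LOC542749 had 1954 in D11 and 2502 in WT (1.28-fold lower). The 1 higher probe set was that of cax1 (LOC541851), a cation exchanger, with 851.1 in D11 and 616.1 in WT (1.38-fold higher).

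**Figure D4:**
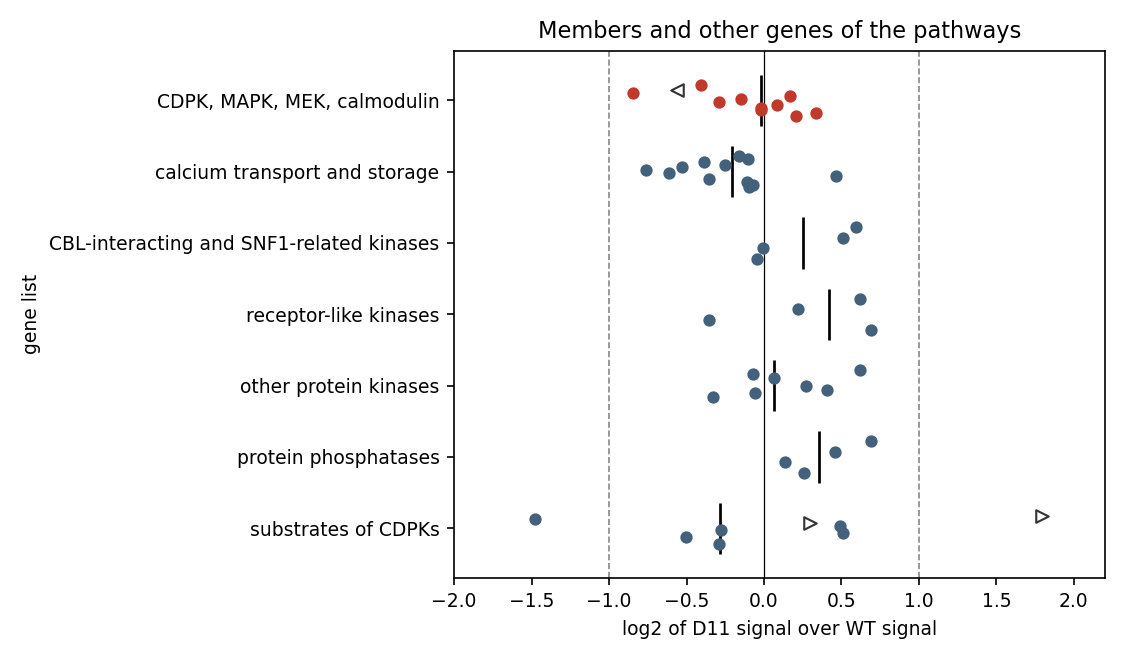
Log2 ratio of D11 over WT for the CDPK, MAP kinase, MEK and calmodulin probe sets (red) and for those of 6 other lists (blue), with list medians as black bars, 2-fold as dashed lines, and open triangles for bounds against the floor. Points for calcium transport and storage lie mostly left of 0 (median -0.21), those for protein phosphatases all right of it (median 0.36), and nitrate reductase genes lie beyond the dashed lines on either side.

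None of the probe sets above the floor for kinases and phosphatases around the modules differed by 2-fold, and nothing is read from this, since few did over the array (6.2% higher and 3.95% lower). Protein phosphatases had higher signals in D11 for 4 of 4 probe sets (3 genes), with a median log2 ratio of 0.36. The phosphatase gene PP2C (LOC542176), of a family that includes negative regulators of abscisic acid signalling, had 1347 in D11 and 836 in WT (1.61-fold higher) and 611 in D11 and 445 in WT (1.37-fold higher) by its 2 probe sets. PP1 (LOC542269) had 1592 in D11 and 1447 in WT, and pp2c-1 (LOC541808) had 1426 in D11 and 1193 in WT. Probe sets of 1 gene are not independent, and 55.0% of all probe sets above the floor were also higher in D11.

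Receptor-like kinases were higher for 3 of 4 probe sets, with a median of 0.42, where 55.0% of all probe sets above the floor were higher. With 4 probe sets, nothing particular to this class is read from the count. serk3 (LOC542670) had 579 in D11 and 359 in WT (1.61-fold higher), and serk2 (LOC542016) had 819 in D11 and 533 in WT (1.54-fold higher). cr4 (LOC542346), which acts in the maize epidermis, had 191.7 in D11 and 164.9 in WT (1.16-fold higher), and serk1 (LOC542015) had 42.4 in D11 and 54.1 in WT (1.28-fold lower). The SERK genes, which encode co-receptors in Arabidopsis, therefore did not all have higher signals. But serk1 was weak and within the largest spike difference of 1.38-fold, so its direction is not read.

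Of the genes for SNF1-related kinases, which respond to the energy state of the cell, 2 of 4 probe sets were higher and 2 lower, with a median of 0.25. SnrK1 (LOC542687) had 375 in D11 and 248 in WT (1.51-fold higher), the subunit gene akin1 (LOC541867) had 444 in D11 and 311 in WT (1.43-fold higher), and its relative LOC542544 had 275.9 in D11 and 276.9 in WT. Other protein kinases had a median of 0.07 over 7 probe sets above the floor, with 4 higher and 3 lower. The cell cycle kinase cdc2 (LOC542270) had 1317 in D11 and 1382 in WT by its brighter probe set, and the casein kinase subunit cka2 (LOC542460) had 1506 in D11 and 1567 in WT. pk4 (LOC541785) had 516.8 in D11 and 647.9 in WT, and pk8-a (LOC732721) had 404.9 in D11 and 305.2 in WT.

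Genes for proteins that CDPKs are known to phosphorylate in plants showed the widest range. Of 10 probe sets (7 genes), 6 were above the floor in both arrays, with a median log2 ratio of -0.28 and a range of -1.48 to 0.51. Of these, 2 were higher and 4 lower, where 55.0% over the array were higher. NNR1, a nitrate reductase gene, had 160.0 in D11 and 445.6 in WT, 2.78-fold lower in D11. A second nitrate reductase gene, nar, had 96.0 in D11 and 3.10 in WT by one probe set, at least 3.48-fold higher in D11, and 2.80 in D11 and 20.9 in WT by the other, under the floor in both. The nitrate reductase genes therefore gave opposite directions, and for nar this rests on 1 of its 2 probe sets. The sucrose synthase gene sus1 (LOC542247) had 7518 in D11 and 9118 in WT (1.21-fold lower). By its brightest probe set, sh1 (LOC542365) had 1953 in D11 and 2767 in WT (1.42-fold lower). Another sh1 probe set had 68.5 in D11 and 83.7 in WT (1.22-fold lower), and the remaining one was under the floor in both. The weaker sucrose synthase gene sus2 (LOC542091) went the other way, with 91.7 in D11 and 65.2 in WT (1.41-fold higher). The NADPH oxidase gene rbohB (LOC100037794), whose product makes the superoxide of oxidative bursts, had 491.9 in D11 and 345.9 in WT (1.42-fold higher).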

How the data were processed

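Total RNA of D11 and WT stems was measured with 1 Affymetrix Maize Genome Array each. The intensities the authors deposited are linear and were made with MAS 5.0 in GeneSpring per the methods (MAS5 and Expression Console per the labels, no versions given). MAS 5.0 subtracts background, summarizes probes and scales each array, so weak signals are the least certain. The arrays had means, with 2% trimmed at each end, of 500.1 (D11) and 500.15 (WT). The number of arrays limits the precision.

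Of 17734 probe sets, 113 controls were set aside. Names came from the platform's table and from RefSeq (Zm-B73-REFERENCE-NAM-5.0). RefSeq held 9 of the 10 genes by gene ID, and has the name MPK4 under a different ID. Log2 ratios were D11 over WT. Where 1 signal was no brighter than the brightest Tag or TrpnX control of its array, a bound was computed with that control, and where both were, no fold change was given. No test was made. Counts at 5-fold (the study's threshold), 2-fold and 1.5-fold were set beside those of all probe sets. The study called fewer transcripts than passed 5-fold here in either direction, so its calls and these counts are not alike.

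The genes and lists were chosen with earlier results of these data known, and the 1.5-fold threshold and the relatives after the values were seen. All genes of the rule are named, and up to 4 genes per list by the brighter signal. The genes cap1, cax1, nar, sus2 and the leaf genes PPDK and pep1 were singled out after their values were seen. GRF symbols were not taken as 14-3-3 proteins. Alternatives were a minimum at the array median, median centring, quantile normalization, lowess centring (span 0.3), the control floor, an offset of 24.7, no shared probe sets, and 1 probe set per gene. Counting was checked on simulated data. Python 3.11.15, numpy 2.4.6, pandas 2.3.3, statsmodels 0.14.6 and matplotlib 3.10.9 were used.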

Additional observations from a re-analysis of the deposited data

How the results depend on the processing

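At 5-fold and at 2-fold, the count of lower probe sets (1 each) was that of cdpk14, whose weak signals the minimum and the floor remove or raise. Both were 0 over the array median in at least 1 array, 0 over it in both arrays and 0 with signals raised to the control floor. With the offset the 5-fold count was 0. At a threshold of 1.5-fold, chosen after seeing the data, 3 were lower. The counts at least 5-fold and 2-fold higher were 0 under each alternative. The median log2 ratio, -0.08 over all 12 probe sets, lay between -0.15 and -0.02 under all alternatives run, less than the spike spread away. Of 100 values of single probe sets under alternatives, 5 moved by 0.20 or more, all of cdpk14, and 3 changed sign, all of MPK5. The control floor brought the median of all probe sets to -0.12, against 0.03 as deposited, since probe sets under both floors take the log2 ratio of the floors, -0.16. No paired analysis was possible because each genotype had 1 array, and for the same reason no array could be left out.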
